A study of Sus scrofa with 30 samples.

Results

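The change in gene expression between Day 8 and Day 10 of pregnancy was described in single pig embryos, as the blastocyst becomes a spherical to ovoid conceptus. All embryos labelled Day 8 or Day 10 were taken, which were 10 embryos of each day and 20 of the 30 embryos of the series, and all 13103 genes of the count table were tested. The remaining 10 embryos, of Day 12, entered the model for its estimate of the spread, and their levels are set beside the others for some genes. Each day held 5 female and 5 male embryos. The dams were German Landrace × Pietrain gilts whose cycles had been synchronised with Altrenogest, PMSG and hCG, and every gilt was inseminated with sperm of the same Pietrain boar. There were 4 gilts per day, assigned to the day at random. Embryos were flushed out of the uterus with buffer, frozen one by one, sexed by PCR of their DNA and sequenced as whole embryos, so that each library holds the embryonic disc, hypoblast and trophectoderm together. In such libraries fewer cells of a type and less RNA per cell cannot be told apart. Which gilt an embryo came from is not stated. Littermates share their dam and are not independent samples, so the p-values measure the spread between embryos and not between litters.

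The pig blastocyst hatches from its zona pellucida and then stays free in the uterine lumen, where it lives on uterine secretion until attachment. The trophectoderm is its outer epithelium, the hypoblast lines the inside of this epithelium, and the epiblast forms the disc from which the embryo proper develops. The covering polar trophectoderm is lost at this stage in the pig, the disc becomes exposed, and gastrulation starts shortly before the conceptus elongates, when it also begins to make oestrogen and interleukin 1 beta as signals to the dam.

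Between Day 8 and Day 10, 9.88% of all genes tested rose and 4.20% fell by an adjusted p under 0.001 and a log2 fold change beyond 1. Rises and falls numbered 16 and 4 of 74 among genes of fatty acids and lipid droplets, 23 and 3 of 77 among genes of the cytoskeleton and 10 and 2 of 23 among genes of FGF and EGF signalling. Falls and rises numbered 9 and 1 of 22 among factors of epiblast and pluripotency and 4 and 1 of 10 among SLC7 amino acid carriers. With counts scaled by library size alone these numbers were, in the same order, 14 and 6, 16 and 3, 7 and 3, 11 and 1, and 4 and 1. HAND1, a bHLH factor of trophoblast development, went from a median of 0 to 66.0 CPM, the proton and potassium pump ATP12A from a median of 0.196 to 190.4 CPM, the peptide carrier SLC15A2 from a median of 4.03 to 472 CPM, and the nodal co-receptor TDGF1 from a median of 14.2 to 593 CPM. In the other direction, GULO, the last enzyme of vitamin C synthesis, went from a median of 92.0 to 0.181 CPM, the retinoid binding protein CRABP2 from a median of 139 to 5.14 CPM, the T-box factor TBX3 from a median of 203 to 27.4 CPM, and PTGS2, the prostaglandin synthase, from a median of 786 to 152 CPM. In each of these 8 genes the 10 embryos of Day 8 and the 10 of Day 10 did not overlap. This was a condition for naming the largest rises and falls.

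Levels are given as CPM, which are counts scaled to a common total with TMM factors, and where 3 values stand in a row they are the lowest, the median and the highest of the 10 embryos of a day. Differentially expressed genes (DEG) had an adjusted p under 0.001 and a log2 fold change beyond 1 by edgeR's quasi-likelihood F test, and "rose", "fell" and "passed" are used of DEG, with the change counted from Day 8 to Day 10. Days are called apart for a gene where the ranges of their embryos did not overlap. Total counts ran from 14882265 to 33799980 per embryo on Day 8 (median 20163313) and from 19773328 to 32476637 on Day 10 (median 22829955), so that 3 counts correspond to 0.0823 to 0.194 CPM and 0.108 to 0.17 CPM. CPM do not account for transcript length, so levels are compared between days and not between genes. Of 11 listed markers of uterine epithelium 3 were in the table (PIGR, ESR1, FOXJ1), none was a DEG, and their summed level was 0.0636, 0.233 and 3.13 CPM on Day 8 and 0.113, 1.41 and 8.72 CPM on Day 10. Of 17 markers of leukocytes and blood 3 were in the table (ITGAM, HBB, ALAS2), and their sum was 37.2, 42.4 and 51.2 CPM on Day 8 and 32.1, 37.1 and 45.6 CPM on Day 10. Only ALAS2 of these rose (0.0528, 0.684 and 1.29 CPM on Day 8 and 0.772, 2.08 and 4.48 CPM on Day 10).

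A total of 1845 DEG were found, 14.1% of the genes tested, of which 1295 (9.88%) were higher and 550 (4.20%) were lower on Day 10. With scaling by library size alone, which shifts all genes by a median of -0.18 on the log2 scale, the split was 1027 higher and 811 lower, and of the genes given below ACACA, ACTN1, DUSP6, FGFR3, KLF6, LIN28B, MYL6 and TJP3 no longer passed. The 2 sets differed in size of change, with 714, 427 and 154 higher genes at a log2 change of 1 to 2, of 2 to 4 and above 4, against 373, 144 and 33 lower genes. Many DEG were expressed at a low level, as 605 higher and 258 lower genes had a mean under 10 CPM on both days, while 230 and 92 reached a mean of 100 CPM on the higher day. The higher DEG took 4.21, 4.86 and 5.43% of the counts of a Day 8 embryo and 12.5, 20.3 and 28.8% of those of a Day 10 embryo. The lower DEG took 4.45, 4.84 and 5.12% on Day 8 and 0.93, 1.45 and 2.23% on Day 10. The days were apart for 1275 DEG, and over all genes tested, DEG or not, they were apart for 22.0%. In 65 of the higher DEG no Day 8 embryo had more than 3 counts, and in 10 of the lower DEG no Day 10 embryo did. DEG lay on every autosome and on X, from 10.8% of the genes tested on chromosome 11 to 17.2% on chromosomes 8 and 9.

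**Figure D1:**
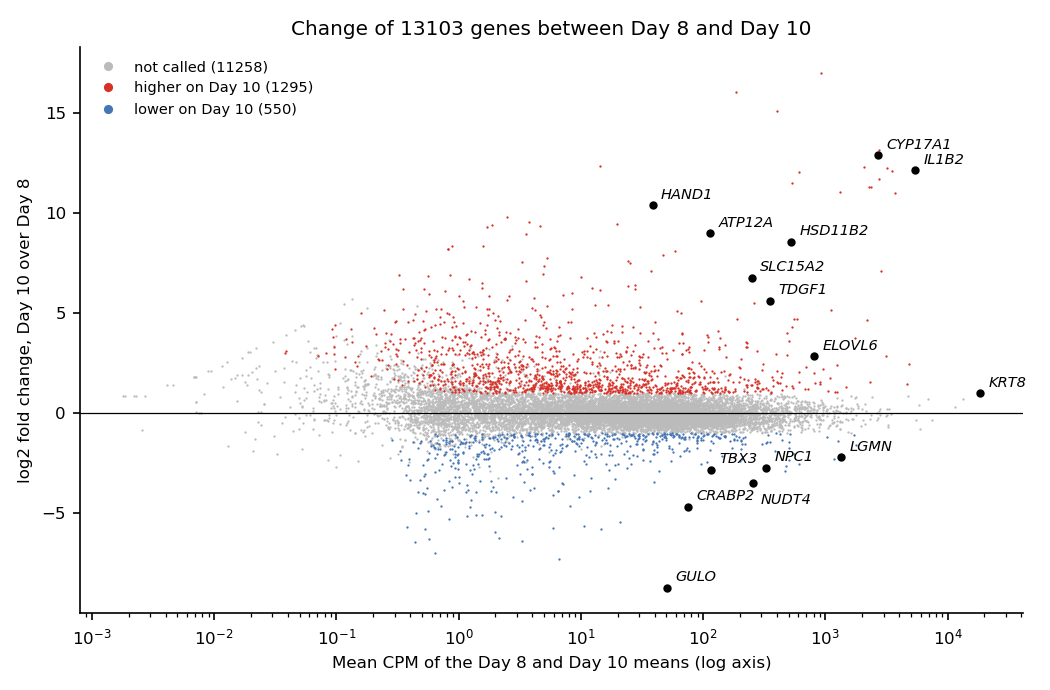
Each point is a gene, with its mean level over both days in CPM on a log axis and its log2 fold change from Day 8 to Day 10. Red points are the 1295 genes higher on Day 10 and blue points the 550 lower, and named genes are drawn as larger black points. Rises reach a log2 fold change above 10, and falls stay above -10.

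Part of the gain in counts lay in few loci. A group of 12 loci without a symbol, LOC110255255, LOC110255300, LOC110258095, LOC110258124, LOC110258125, LOC110258272, LOC110258445, LOC110258578, LOC110258579, LOC110258582, LOC110259014 and LOC110259156, each spanning 5100 to 6153 bp on scaffolds that are not placed on a chromosome of Sscrofa11.1, had log2 fold changes above 10 and up to 13.1. They were picked as such loci that were higher on Day 10 with a log2 fold change above 10. The size of their rise thus follows from the choice and is no result about a group. Together they took 0.000213, 0.0012 and 0.00465% of the counts on Day 8 and 1.75, 4.79 and 8.42% on Day 10. In all 12 the highest Day 10 embryo was the one that was highest for IL1B2, the conceptus interleukin 1 beta, and in 8 the lowest was the same too. That highest embryo, d10_m_453, also had the highest Day 10 level in 389 of the 1295 higher DEG. Embryos d10_f_433 and d10_m_435 had the lowest in 535 and 284 of them. A relation of the loci to IL1B2 was not tested. The RefSeq table lists 6 of the 12 as pseudogenes, LOC110258272 among them. The files give these loci no other name, and reads of near-identical copies may have been divided among them. Their single values are therefore uncertain and may not be independent. For one of them, LOC110258272, all Day 8 embryos were at 0 counts, and the mean of Day 10 was at least 206-fold higher, taking 3 counts per library as the floor. The 12 loci and the interleukin 1 and steroid synthesis genes that rose made up 24 genes, which took 0.0765, 0.0831 and 0.107% of the counts on Day 8 and 2.48, 6.8 and 12.6% on Day 10.

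Among the other genes with the largest rises were a transcription factor, an ion pump and a glucocorticoid enzyme. HAND1 (NCBI gene 541594, chromosome 16, 68679977 to 68683346) had 0, 0 and 0.464 CPM on Day 8 and 22.7, 66.0 and 175 CPM on Day 10 (log2 fold change 10.37 ± 0.57, adjusted p = 2.0e-15). The value of 0.464 CPM was that of embryo d08_m_133, and the other Day 8 embryos had at most 3 counts. Without that embryo the log2 fold change was 11.93. ATP12A (NCBI gene 100521921, chromosome 11, 113901 to 144765), the catalytic subunit of the non-gastric proton and potassium pump, had 0.0395, 0.196 and 1.43 CPM on Day 8 and 19.3, 190.4 and 532 CPM on Day 10 (log2 fold change 8.99 ± 0.61, adjusted p = 2.6e-13). HSD11B2 (NCBI gene 396948, chromosome 6, 28084087 to 28089256), which inactivates cortisol to cortisone, had 1.21, 2.37 and 6.20 CPM on Day 8 and 209, 792 and 3082 CPM on Day 10 (log2 fold change 8.56 ± 0.61, adjusted p = 9.4e-13). Without embryo d08_m_103 the log2 fold change of ATP12A was 9.58. On Day 12 the medians of these 3 genes were 1064, 192 and 30.05 CPM, so that HAND1 stood above its Day 10 range, ATP12A within it and HSD11B2 below it. SLC15A2 (NCBI gene 100048951, chromosome 13, 138595942 to 138634473), the high-affinity carrier of di- and tripeptides, had 2.13, 4.03 and 9.06 CPM on Day 8 and 348, 472 and 787 CPM on Day 10 (log2 fold change 6.76 ± 0.30, adjusted p = 3.1e-17). TMEM254, a membrane protein, had 115, 147 and 244 CPM on Day 8 and 1972, 3735 and 6482 CPM on Day 10 (log2 fold change 4.66 ± 0.36, adjusted p = 4.6e-12). Both genes were higher in every Day 10 embryo than in any Day 8 embryo.

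**Figure D2:**
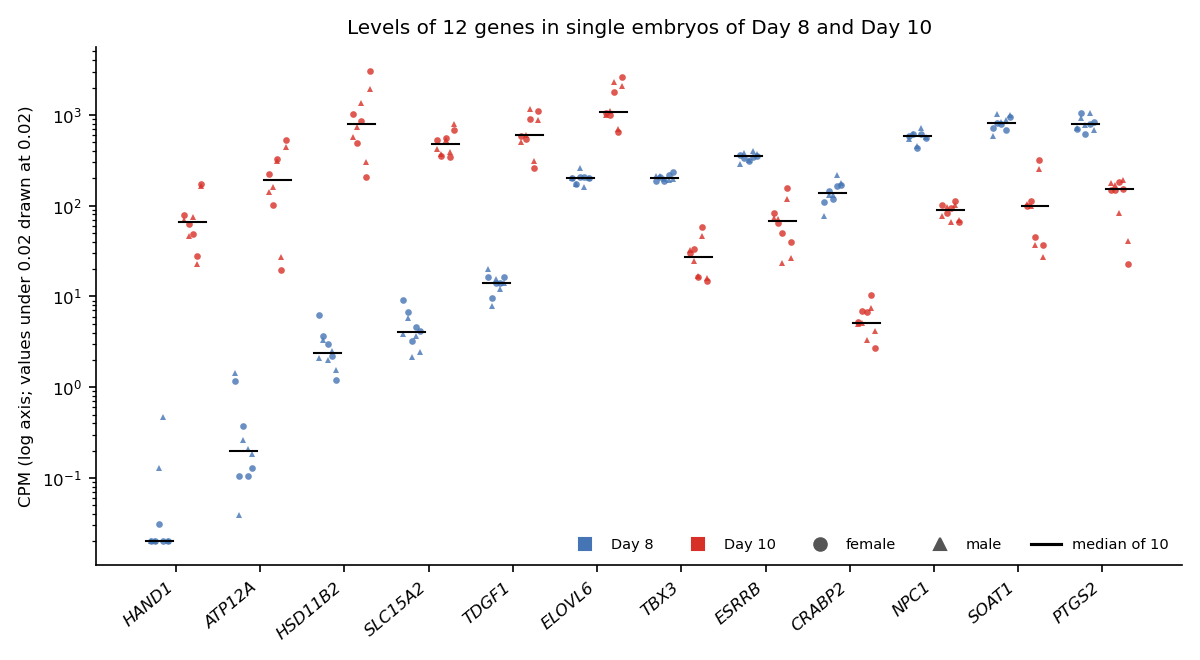
Levels of 12 genes in CPM on a log axis, with circles for female and triangles for male embryos, blue for Day 8, red for Day 10, and a bar at the median of the 10 embryos. The 6 genes from HAND1 to ELOVL6 that rose and the 6 that fell have no overlap between the days, and values under 0.02 CPM are drawn at 0.02.

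Large falls included those of enzymes and surface proteins. GULO (NCBI gene 396759, chromosome 14, 11299858 to 11332892) had 59.2, 92.0 and 245.3 CPM on Day 8 and 0, 0.181 and 0.639 CPM on Day 10 (log2 fold change -8.71 ± 0.39, adjusted p = 3.1e-17). LIPH, a phospholipase that makes lysophosphatidic acid, had 6.01, 9.40 and 32.1 CPM on Day 8 and 0, 0 and 0.228 CPM on Day 10 (log2 fold change -7.26 ± 0.53, adjusted p = 1.2e-12). ST6GALNAC1, a sialyltransferase of mucin-type glycans, had 17.6, 28.1 and 46.7 CPM on Day 8 and 0.0445, 0.257 and 2.77 CPM on Day 10 (log2 fold change -5.77 ± 0.57, adjusted p = 1.1e-09), and without embryo d10_f_433, its highest Day 10 embryo, the log2 fold change was -6.70. On Day 10, 4 embryos had at most 3 counts of GULO, 7 of LIPH and 2 of ST6GALNAC1, so that the size of these falls is uncertain. CRABP2, which carries retinoic acid to its receptors, had 77.4, 139 and 217 CPM on Day 8 and 2.73, 5.14 and 10.5 CPM on Day 10 (log2 fold change -4.66 ± 0.43, adjusted p = 2.7e-10). ARG1, the arginase of the urea cycle, had 4.20, 11.3 and 41.4 CPM on Day 8 and 0.145, 0.652 and 1.32 CPM on Day 10 (log2 fold change -4.62 ± 0.41, adjusted p = 8.4e-11). Others among the 15 largest falls were CCDC151, a protein of ciliary dynein docking, CEMIP, which takes part in hyaluronan breakdown, KLHL5, FUT1, which makes the H antigen, the ATP-gated channel P2RX1, KRBA1, the OX40 ligand TNFSF4, LOC100511133 and NUDT4, a phosphatase of diphosphoinositol polyphosphates. Their log2 fold changes ran from -4.21 (CCDC151) to -3.49 (NUDT4). NUDT4 had 361, 478 and 588 CPM on Day 8 and 30.3, 39.9 and 65.1 CPM on Day 10. Each of these genes was apart between the days, as the choice of the 15 largest falls required.

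Of 452 transcription factors and cofactors in the table, 51 (11.3%) were higher and 38 (8.41%) were lower on Day 10, with a median log2 fold change of 0.06 against 0.03 over all genes, and with library size alone the median was -0.12 and the split turned to 43 higher and 51 lower. The shares over all genes were 9.88% and 4.20%. By class, DEG made up 3 higher and 1 lower of 9 T-box factors, 11 and 4 of 50 bHLH factors, 5 and 1 of 20 forkhead factors, 5 and 1 of 25 homeobox factors of the TALE, CUT and related classes, and 3 and 5 of 29 nuclear receptors. None of 8 SMAD, 4 TEAD, 4 TCF and LEF, 3 AP-2 and 10 E2F factors was a DEG. Among 221 ZNF genes 5 rose and 10 fell, and the median was -0.22.

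After HAND1, the Iroquois homeobox gene IRX3 had the largest rise among factors with a mean of at least 5 CPM on the higher day, with 0.156, 0.337 and 0.751 CPM on Day 8 and 4.32, 12.01 and 81.5 CPM on Day 10 (log2 fold change 6.17 ± 0.56, adjusted p = 1.4e-10), and the highest of these was embryo d10_f_454. Its relative IRX4 had at most 3 counts in each Day 8 embryo and 0.727, 1.58 and 9.16 CPM on Day 10 (adjusted p = 1.8e-09). GRHL3, a grainyhead factor of surface epithelia, had 0.211, 0.614 and 1.02 CPM on Day 8 and 1.32, 5.96 and 48.1 CPM on Day 10 (log2 fold change 4.53 ± 0.59, adjusted p = 1.6e-07). The days did not overlap in any of these, although GRHL3 spread widely over the Day 10 embryos. VGLL3, a cofactor of TEAD factors, had 9.22, 14.5 and 18.3 CPM on Day 8 and 88.9, 185 and 461 CPM on Day 10 (log2 fold change 4.09 ± 0.31, adjusted p = 3.3e-12). PPARG, the nuclear receptor of adipocytes and trophoblast, had 0.141, 0.368 and 0.951 CPM on Day 8 and 0.9997, 3.40 and 15.6 CPM on Day 10 (log2 fold change 3.70 ± 0.44, adjusted p = 3.3e-08), and its median on Day 12 was 74.0 CPM. SOX15 had 4.07, 4.597 and 7.70 CPM on Day 8 and 17.5, 35.7 and 64.6 CPM on Day 10 (log2 fold change 2.81 ± 0.27, adjusted p = 7.2e-10). The TALE homeobox gene PKNOX2, the bHLH repressor HES6, SOX4 and the zinc finger factor KLF6 rose as well, by 3.90 ± 0.45, 2.58 ± 0.28, 2.12 ± 0.23 and 1.15 ± 0.14 on the log2 scale. DPPA5, an RNA-binding protein of pluripotent cells, is listed among the cofactors and moved opposite to the 9 pluripotency factors that fell, with 2.73, 3.54 and 5.81 CPM on Day 8 and 24.5, 96.0 and 678 CPM on Day 10 (log2 fold change 5.58 ± 0.52, adjusted p = 3.2e-10).

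Falling factors included orphan nuclear receptors and genes known from the naive pluripotency network. Which cell layer of these whole embryos expressed them was not tested. ESRRG had 21.2, 35.2 and 47.3 CPM on Day 8 and 0.617, 3.25 and 8.63 CPM on Day 10 (log2 fold change -3.26 ± 0.36, adjusted p = 6.3e-09). ESRRB, a member of the same receptor family, had 289.02, 350.3 and 402 CPM on Day 8 and 23.4, 67.4 and 158 CPM on Day 10 (log2 fold change -2.30 ± 0.30, adjusted p = 1.6e-07), and its Day 12 median was 0.103 CPM. TBX3 (NCBI gene 100152741, chromosome 14, 37582704 to 37596767) had 187, 203 and 233 CPM on Day 8 and 14.8, 27.4 and 58.1 CPM on Day 10 (log2 fold change -2.82 ± 0.23, adjusted p = 1.5e-11). Every Day 10 embryo lay below every Day 8 embryo in these 3 genes, and the ratio of the highest to the lowest embryo was larger on Day 10 than on Day 8. UTF1 had 28.9, 40.2 and 64.8 CPM on Day 8 and 2.24, 5.03 and 16.5 CPM on Day 10 (log2 fold change -2.71 ± 0.47, adjusted p = 1.4e-05). TFCP2L1 had 6.74, 7.88 and 14.9 CPM on Day 8 and 0.851, 2.31 and 4.605 CPM on Day 10 (log2 fold change -1.85 ± 0.26, adjusted p = 7.7e-07). DPPA3 had 3.76, 4.85 and 7.19 CPM on Day 8 and 1.02, 1.39 and 1.998 CPM on Day 10 (log2 fold change -1.89 ± 0.27, adjusted p = 6.4e-07). The SoxB factor SOX21 had 2.41, 3.90 and 5.03 CPM on Day 8 and 0, 0.160 and 0.935 CPM on Day 10 (log2 fold change -3.92 ± 0.43, adjusted p = 6.9e-09). ZBTB45, DLX5, SNAI1, the repressor of E-cadherin, and MYCN fell by smaller amounts, with log2 fold changes of -1.84 ± 0.29, -1.61 ± 0.19, -1.59 ± 0.19 and -1.39 ± 0.12.

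**Figure D3:**
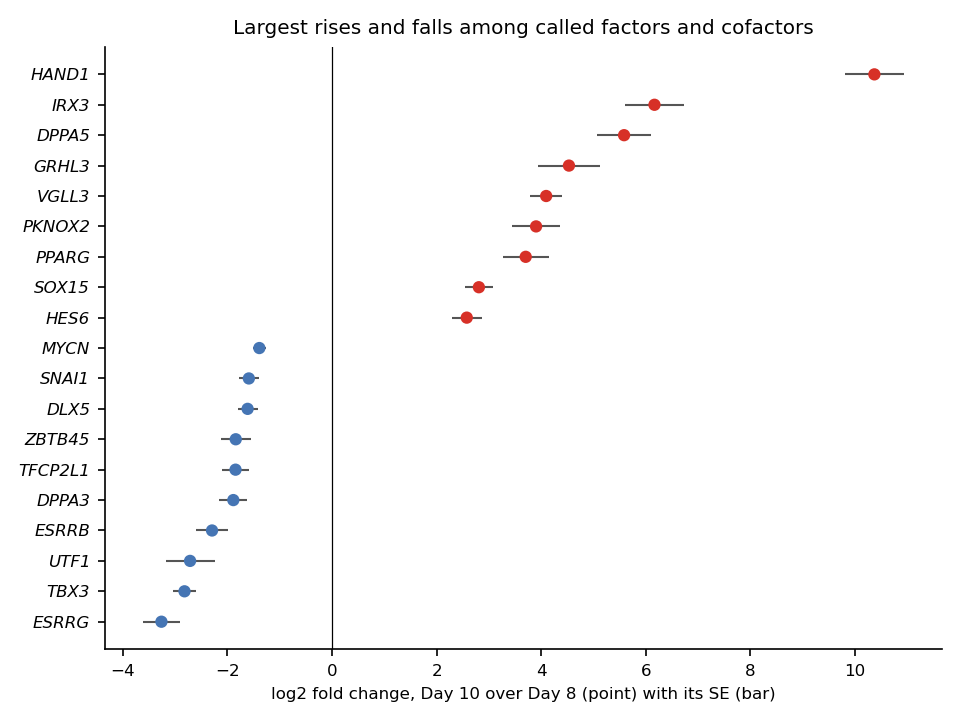
Log2 fold changes from Day 8 to Day 10, as points with their standard errors as bars, of the largest rises (red) and the largest falls (blue) among the transcription factors and cofactors with a mean of at least 5 CPM on the higher day that are described here. The largest rise is that of HAND1 at 10.37 and the largest fall that of ESRRG at -3.26.

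The label of the samples as early conceptuses was set against markers of the 3 lineages. Of 22 measured factors of epiblast and pluripotency (25 listed), 9 fell (40.9%) and DPPA5 alone rose, against 4.20% and 9.88% of all genes. Their median log2 fold change was -0.98. A gene that is under the authors' CPM cutoff on one day can be in the table through the other day, which holds for this and all other lists. POU5F1, the core pluripotency factor, had 22.5, 31.5 and 39.5 CPM on Day 8 and 10.6, 13.7 and 20.6 CPM on Day 10 (log2 fold change -1.10 ± 0.21, adjusted p = 4.3e-05). NANOG had 1.97, 3.65 and 6.01 CPM on Day 8 and 1.13, 2.30 and 3.08 CPM on Day 10 (log2 fold change -0.71 ± 0.26, adjusted p = 0.019). SOX2 had 0.409, 0.822 and 1.65 CPM on Day 8 and 0.228, 0.425 and 0.772 CPM on Day 10 (log2 fold change -1.03 ± 0.30, adjusted p = 0.0045), and neither passed the threshold. The embryos of both days overlapped for NANOG and SOX2 and not for POU5F1. PRDM14, a repressor of differentiation in naive cells, had 1.24, 1.60 and 2.91 CPM on Day 8 and 0.253, 0.613 and 0.904 CPM on Day 10 (log2 fold change -1.64 ± 0.27, adjusted p = 7.2e-06). Among the other epiblast genes, 4 of 14 rose and 2 fell, and with library size alone 1 was higher. TDGF1 (NCBI gene 100623389, chromosome 13, 29537874 to 29544686) had 7.82, 14.2 and 19.8 CPM on Day 8 and 261, 593 and 1159.5 CPM on Day 10 (log2 fold change 5.61 ± 0.27, adjusted p = 1.1e-16). LIN28B, which blocks let-7 processing, had 0.658, 0.901 and 2.18 CPM on Day 8 and 2.29, 3.08 and 4.51 CPM on Day 10 (log2 fold change 1.51 ± 0.33, adjusted p = 3.2e-04). The de novo methyltransferase DNMT3B did not pass the threshold, with 232, 303 and 362 CPM on Day 8 and 295, 342 and 386 CPM on Day 10 (log2 fold change 0.23 ± 0.12, adjusted p = 0.1).

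Trophectoderm genes were measured almost completely, with 44 of 46 in the table. Among them 13 rose (29.5%) and 2 fell (4.54%), against 9.88% and 4.20% of all genes. With library size alone 10 were higher and 2 lower. The factors that set up the lineage did not change by these criteria. CDX2 had 148, 173 and 181 CPM on Day 8 and 196, 208 and 256 CPM on Day 10 (log2 fold change 0.33 ± 0.16, adjusted p = 0.085). GATA3 had 122, 138 and 158 CPM on Day 8 and 93.1, 128.9 and 144 CPM on Day 10 (log2 fold change -0.18 ± 0.15, adjusted p = 0.29). TFAP2C had 95.7, 110.4 and 128 CPM on Day 8 and 78.1, 90.0 and 115 CPM on Day 10 (log2 fold change -0.28 ± 0.14, adjusted p = 0.11). For CDX2 every Day 10 embryo was above every Day 8 embryo although the change was under the limit, and for GATA3 and TFAP2C the days overlapped. GATA2 and TEAD4 had log2 fold changes of -0.49 ± 0.13 and -0.37 ± 0.20. ELF5, a factor of trophoblast stem cells, rose at a low level, with 0.258, 0.496 and 1.22 CPM on Day 8 and 0.791, 1.68 and 5.04 CPM on Day 10 (log2 fold change 1.84 ± 0.33, adjusted p = 2.3e-05). Simple epithelial keratins are the intermediate filaments of this layer. KRT7, whose locus the RefSeq table lists as a long non-coding RNA gene, had 53.1, 135.6 and 365 CPM on Day 8 and 414, 672 and 849 CPM on Day 10 (log2 fold change 2.10 ± 0.27, adjusted p = 9.7e-08). KRT19 had 985, 1159 and 1327 CPM on Day 8 and 2261, 3645 and 4129 CPM on Day 10 (log2 fold change 1.57 ± 0.14, adjusted p = 1.4e-10). KRT18 had 8991, 10415 and 10669.9 CPM on Day 8 and 12415, 16491 and 19889.9 CPM on Day 10 (log2 fold change 0.72 ± 0.19, adjusted p = 0.0015). The days did not overlap at these 3 loci, but the change of KRT18 stayed under the limit. VGLL1, a TEAD cofactor of human trophectoderm, had 31.0, 34.3 and 53.1 CPM on Day 8 and 68.5, 122 and 222 CPM on Day 10 (log2 fold change 1.77 ± 0.18, adjusted p = 2.5e-09), and PLET1 rose from a median of 0.0712 to 8.57 CPM, with 9891 CPM as its Day 12 median. Without embryo d08_m_133, which held its highest Day 8 value, the log2 fold change of PLET1 moved from 4.57 to 6.72.

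Hypoblast factors and secreted genes were split in direction. GATA6 had 127, 139 and 161 CPM on Day 8 and 48.1, 57.1 and 61.5 CPM on Day 10 (log2 fold change -1.36 ± 0.14, adjusted p = 3.7e-09). GATA4 had 30.4, 36.6 and 63.1 CPM on Day 8 and 18.9, 21.6 and 25.7 CPM on Day 10 (log2 fold change -0.85 ± 0.20, adjusted p = 5.9e-04). SOX17 had 17.9, 23.8 and 49.7 CPM on Day 8 and 17.2, 23.01 and 33.0 CPM on Day 10 (log2 fold change -0.17 ± 0.23, adjusted p = 0.54). HNF4A had 29.0, 36.4 and 63.9 CPM on Day 8 and 23.4, 34.9 and 39.3 CPM on Day 10 (log2 fold change -0.21 ± 0.25, adjusted p = 0.5). Of these only GATA6 passed the threshold, and day ranges were apart for GATA6 and GATA4. HHEX, a factor of the anterior endoderm, had 1.61, 2.01 and 3.43 CPM on Day 8 and 0, 0.304 and 0.623 CPM on Day 10 (log2 fold change -2.84 ± 0.45, adjusted p = 4.2e-06), and FOXA1 rose from 0.0469, 0.237 and 0.572 CPM to 1.02, 1.42 and 3.11 CPM (log2 fold change 2.46 ± 0.29, adjusted p = 2.1e-08). RBP4, the plasma carrier of retinol, had 0, 0.121 and 0.548 CPM on Day 8 and 5.04, 11.9 and 76.7 CPM on Day 10 (log2 fold change 6.80 ± 0.59, adjusted p = 6.0e-11). DKK1, a secreted WNT inhibitor, had 1.496, 2.68 and 5.30 CPM on Day 8 and 12.8, 38.6 and 44.9 CPM on Day 10 (log2 fold change 3.49 ± 0.40, adjusted p = 2.0e-08). Without embryo d08_m_103 the log2 fold change of RBP4 was 7.44. APOA1 and PDGFRA, a receptor of hypoblast cells, had log2 fold changes of 0.56 ± 0.23 and -0.52 ± 0.34 and did not pass the threshold. In all, 10 of 38 measured hypoblast genes rose and 4 fell, and the list's median of 0.14 became -0.05 with library size alone. Of 18 measured genes of the primitive streak, out of 40 listed, 2 rose and 3 fell. T (brachyury), the marker of the streak, had 0, 0.105 and 0.149 CPM on Day 8 and 0.0913, 1.46 and 2.94 CPM on Day 10 (log2 fold change 3.81 ± 0.56, adjusted p = 1.4e-06), with some overlap between the days.

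**Figure D4:**
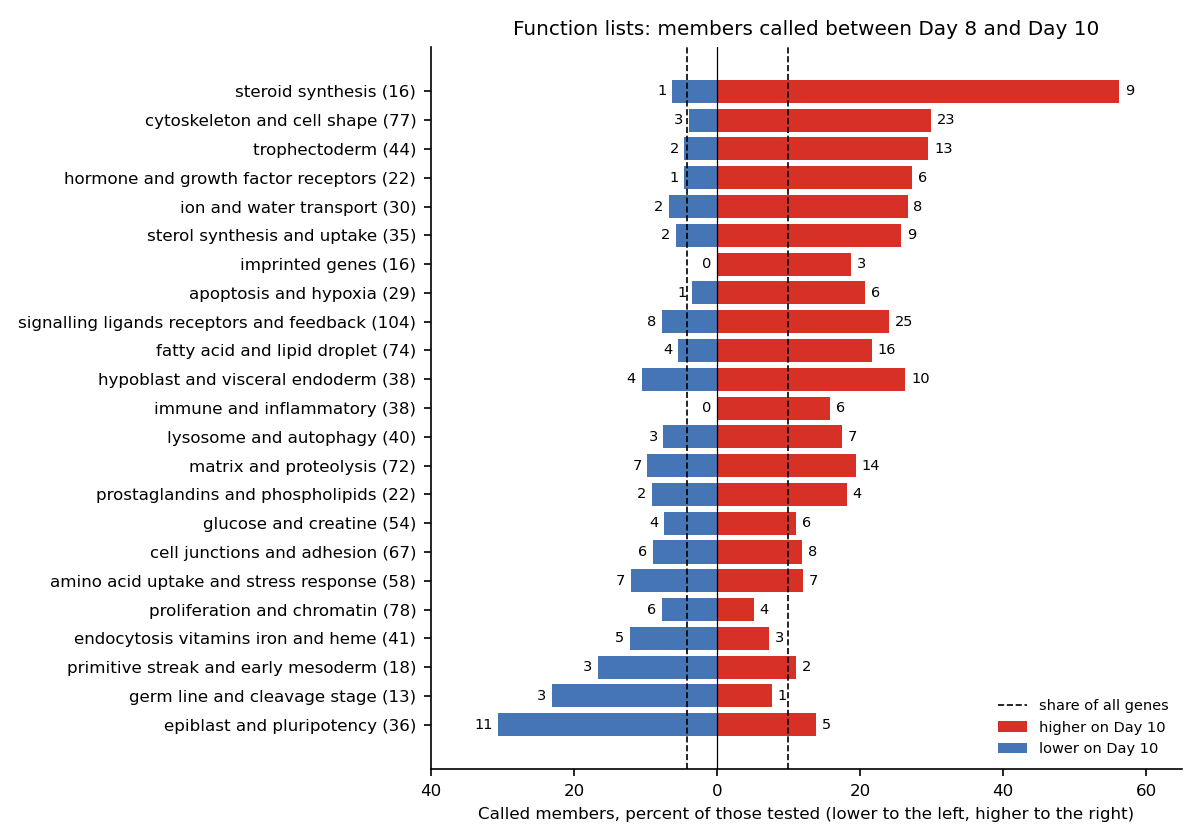
Share of the measured members of each function list with at least 10 measured members that were higher (red, to the right) or lower (blue, to the left) on Day 10, with the number of members called at the bar's end and the number measured after the list's name. Dashed lines mark the shares over all genes, 9.88% and 4.20%. Among these, steroid synthesis has the largest share of higher members, and the epiblast list the largest share of lower members.

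Among signalling genes, 25 of 104 measured members were higher (24.04%) and 8 lower (7.69%), against 9.88% and 4.20% of all genes. The numbers were 19 and 10 with library size alone. The FGF and EGF group held 10 of the 25 rises among 23 members, and its median log2 fold change was 0.86. With library size alone 7 of the group were higher and 3 lower, and the median was 0.67. Among the ligands, EREG, which binds the EGF receptor, had 163, 216 and 256 CPM on Day 8 and 361, 548 and 883 CPM on Day 10 (log2 fold change 1.52 ± 0.23, adjusted p = 1.6e-06). HBEGF had 1.38, 2.49 and 4.01 CPM on Day 8 and 3.95, 9.84 and 29.2 CPM on Day 10 (log2 fold change 2.22 ± 0.31, adjusted p = 5.9e-07). FGF10 had 0, 0.0515 and 0.219 CPM on Day 8 and 0.875, 1.67 and 2.60 CPM on Day 10 (log2 fold change 4.32 ± 0.43, adjusted p = 8.3e-10). The days were apart for EREG and FGF10 and overlapped for HBEGF. Of the receptors, FGFR2 had 0.557, 1.72 and 3.32 CPM on Day 8 and 6.17, 10.6 and 17.9 CPM on Day 10 (log2 fold change 2.56 ± 0.31, adjusted p = 4.2e-08). FGFR3 had 21.9, 27.2 and 30.5 CPM on Day 8 and 46.1, 55.7 and 73.3 CPM on Day 10 (log2 fold change 1.10 ± 0.12, adjusted p = 3.4e-09). DUSP5 and DUSP6 are phosphatases of ERK and feedback genes of the pathway. DUSP5 had 26.8, 34.5 and 88.0 CPM on Day 8 and 143, 343 and 771 CPM on Day 10 (log2 fold change 3.30 ± 0.28, adjusted p = 4.9e-11). DUSP6 had 56.7, 72.9 and 111.3 CPM on Day 8 and 86.4, 173 and 199 CPM on Day 10 (log2 fold change 1.06 ± 0.19, adjusted p = 2.9e-05), and the days overlapped for it and not for DUSP5. FGF7 depended on one embryo, as embryo d10_m_453 had 59.98 CPM against a Day 10 median of 2.12 CPM, and its log2 fold change of 6.93 ± 1.17 was 5.73 without that embryo and 9.26 without embryo d08_m_103.

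WNT genes moved in both directions, 6 higher (23.1%) and 3 lower (11.5%) of 26 measured, against 9.88% and 4.20% of all genes. The ligand WNT4 had at most 3 counts in each Day 8 embryo and 3.41, 8.86 and 18.8 CPM on Day 10 (adjusted p = 2.8e-15), and its Day 12 median was 119 CPM. The secreted inhibitors DKK1, described above, and SFRP1 rose, SFRP1 with 2.08, 4.04 and 5.003 CPM on Day 8 and 11.4, 30.003 and 43.0 CPM on Day 10 (log2 fold change 2.87 ± 0.29, adjusted p = 9.9e-10). The 3 members that fell are genes that WNT signals induce. AXIN2, a feedback inhibitor, had 22.3, 26.4 and 33.1 CPM on Day 8 and 4.84, 6.49 and 8.27 CPM on Day 10 (log2 fold change -2.11 ± 0.20, adjusted p = 3.1e-10). RNF43, which removes WNT receptors, had 7.57, 11.3 and 12.1 CPM on Day 8 and 0.772, 2.92 and 6.23 CPM on Day 10 (log2 fold change -1.94 ± 0.26, adjusted p = 2.3e-07). LGR5, the R-spondin receptor, had 1.08, 1.99 and 2.72 CPM on Day 8 and 0.0740, 0.333 and 0.655 CPM on Day 10 (log2 fold change -2.51 ± 0.34, adjusted p = 2.5e-07). None of them overlapped between the days. WNT6, WNT7B and WNT11 did not pass the threshold (adjusted p = 0.17, adjusted p = 0.42 and adjusted p = 0.11).

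In the TGF beta superfamily, rises were found for the ligand GDF6, with 0, 0.0988 and 0.264 CPM on Day 8 and 1.78, 2.91 and 6.17 CPM on Day 10 (log2 fold change 4.89 ± 0.36, adjusted p = 1.9e-12). The BMP receptor BMPR1B had 0, 0.124 and 0.264 CPM on Day 8 and 0.546, 1.62 and 5.17 CPM on Day 10 (log2 fold change 3.82 ± 0.46, adjusted p = 4.8e-08). BAMBI, a decoy receptor, had 12.2, 19.1 and 25.9 CPM on Day 8 and 2.27, 3.19 and 4.79 CPM on Day 10 (log2 fold change -2.53 ± 0.34, adjusted p = 3.1e-07). TGFB3 had 0.882, 1.21 and 3.23 CPM on Day 8 and 4.32, 9.11 and 233.6 CPM on Day 10 (log2 fold change 5.30 ± 0.74, adjusted p = 5.5e-07), the highest value being that of embryo d10_f_454. The days did not overlap in these 4 genes, and BMP2 and ID2 did not pass the limits, with log2 fold changes of -0.59 ± 0.16 and 0.79 ± 0.11. NODAL, the ligand for which TDGF1 is a co-receptor, went the other way from TDGF1, with 1.75, 2.61 and 4.47 CPM on Day 8 and 0.954, 1.31 and 1.69 CPM on Day 10 (log2 fold change -1.09 ± 0.20, adjusted p = 8.6e-05), but was under the limit without embryo d08_m_103, with a log2 fold change nearer to 0 than -1 (-0.997, adjusted p = 2.1e-04). SOCS3, the feedback inhibitor of LIF and IL6 signals, had 2.80, 3.71 and 5.54 CPM on Day 8 and 9.13, 12.3 and 16.9 CPM on Day 10 (log2 fold change 1.71 ± 0.15, adjusted p = 7.0e-11). Of the angiomotins, which hold YAP1 in the cytoplasm, AMOT had 217, 305 and 404 CPM on Day 8 and 40.4, 66.8 and 93.7 CPM on Day 10 (log2 fold change -2.19 ± 0.17, adjusted p = 5.2e-12). AMOTL2 had 20.4, 32.2 and 38.1 CPM on Day 8 and 36.7, 78.6 and 155 CPM on Day 10 (log2 fold change 1.46 ± 0.21, adjusted p = 1.1e-06). The pair moved in opposite directions, while YAP1 itself had 118, 132 and 169 CPM on Day 8 and 104.9, 116 and 141 CPM on Day 10 (log2 fold change -0.19 ± 0.09, adjusted p = 0.074).

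Of 16 measured genes of steroid synthesis 9 rose (56.25%) and 1 fell (6.25%), against 9.88% and 4.20% of all genes. Of 19 measured enzymes of cholesterol synthesis 7 rose (36.8%) and none fell, with a median log2 fold change of 0.76, although with library size alone 3 of the enzymes were higher, and the sterol list as a whole held 4 higher members in place of 9. CYP51, the lanosterol demethylase, had 6.18, 12.5 and 22.4 CPM on Day 8 and 33.4, 45.8 and 57.0 CPM on Day 10 (log2 fold change 1.70 ± 0.25, adjusted p = 1.5e-06). LSS, which closes the sterol ring, had 8.95, 12.03 and 16.8 CPM on Day 8 and 20.8, 38.7 and 47.2 CPM on Day 10 (log2 fold change 1.54 ± 0.15, adjusted p = 8.9e-10). INSIG1, which retains the sterol sensor in the endoplasmic reticulum, had 4.51, 5.45 and 8.65 CPM on Day 8 and 15.8, 24.7 and 36.7 CPM on Day 10 (log2 fold change 2.10 ± 0.35, adjusted p = 9.7e-06). The sterol transport genes that fell were NPC1 and SOAT1. NPC1 (NCBI gene 397591, chromosome 6, 108403126 to 108450486), which exports cholesterol from lysosomes, had 434, 579 and 716 CPM on Day 8 and 65.7, 89.2 and 113 CPM on Day 10 (log2 fold change -2.72 ± 0.20, adjusted p = 1.9e-12). SOAT1 (NCBI gene 100628166, chromosome 9, 121045211 to 121112393), which esterifies cholesterol for storage, had 578, 824 and 1017 CPM on Day 8 and 27.2, 98.9 and 314.6 CPM on Day 10 (log2 fold change -2.87 ± 0.35, adjusted p = 4.1e-08). Both were lower in each of the 10 Day 10 embryos than in any Day 8 embryo.

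Of 74 measured genes of fatty acids and lipid droplets 16 rose (21.6%) and 4 fell (5.41%), against 9.88% and 4.20% of all genes. Their median log2 fold change was 0.47. With library size alone 14 were higher and 6 lower, and the median was 0.27. In synthesis and elongation, ELOVL6 (NCBI gene 100312970, chromosome 8, 112038670 to 112190079), which elongates palmitate, had 160.0, 202 and 259 CPM on Day 8 and 652, 1076 and 2599 CPM on Day 10 (log2 fold change 2.84 ± 0.22, adjusted p = 3.6e-12). FADS2, the delta-6 desaturase, had 58.6, 70.1 and 82.9 CPM on Day 8 and 221, 328 and 455 CPM on Day 10 (log2 fold change 2.25 ± 0.18, adjusted p = 1.1e-11). ACACA, which makes malonyl-CoA, had 87.1, 113 and 135 CPM on Day 8 and 185, 241 and 296.995 CPM on Day 10 (log2 fold change 1.08 ± 0.11, adjusted p = 6.8e-10). ACSL3, an acyl-CoA synthetase of lipid droplets, had 37.0, 50.5 and 68.5 CPM on Day 8 and 252, 686 and 2586 CPM on Day 10 (log2 fold change 4.28 ± 0.38, adjusted p = 8.1e-11), the highest in embryo d10_f_454. These 4 genes were apart between the days, while FASN and SCD, the fatty acid synthase and the stearoyl-CoA desaturase, had log2 fold changes of 0.62 ± 0.13 and 0.23 ± 0.16 and did not pass.

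In uptake and storage, the fatty acid carrier SLC27A6 had 0, 0.192 and 1.97 CPM on Day 8 and 5.54, 28.6 and 369 CPM on Day 10 (log2 fold change 8.12 ± 0.85, adjusted p = 3.0e-09), and without embryo d08_m_103 the log2 fold change was 9.37. MOGAT1, which acylates monoacylglycerol, had 2.48, 5.39 and 17.4 CPM on Day 8 and 64.8, 106 and 222 CPM on Day 10 (log2 fold change 3.98 ± 0.34, adjusted p = 6.1e-11). LIPE and MGLL, which are among the lipases of stored fat, rose. LIPE had 0.572, 1.02 and 1.55 CPM on Day 8 and 3.33, 8.33 and 20.9 CPM on Day 10 (log2 fold change 3.21 ± 0.29, adjusted p = 1.2e-10). MGLL had 8.77, 25.5 and 47.4 CPM on Day 8 and 122, 228 and 449 CPM on Day 10 (log2 fold change 3.22 ± 0.26, adjusted p = 1.1e-11), and the days were apart for both. PLIN2, the coat protein of lipid droplets, fell, with 1618, 1834 and 2089 CPM on Day 8 and 457, 691 and 880.2 CPM on Day 10 (log2 fold change -1.41 ± 0.15, adjusted p = 5.3e-09). In oxidation, CPT1A, which admits long-chain fatty acids to mitochondria, fell, with 31.5, 49.6 and 63.0 CPM on Day 8 and 12.7, 16.2 and 27.1 CPM on Day 10 (log2 fold change -1.40 ± 0.19, adjusted p = 4.9e-07). ECI2, an enoyl-CoA isomerase, rose, with 29.8, 34.5 and 46.5 CPM on Day 8 and 140.2, 382 and 833 CPM on Day 10 (log2 fold change 3.53 ± 0.24, adjusted p = 4.5e-13). The group of 24 oxidation and ketone body genes held 2 rises (8.33%) and 1 fall (4.17%), near the 9.88% and 4.20% of all genes.

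Genes of glucose and creatine held 6 higher (11.11%) and 4 lower (7.41%) DEG of 54, against 9.88% and 4.20% of all genes, and with library size alone 3 were higher. The glucose carrier SLC2A1 had 226, 320.2 and 380.0 CPM on Day 8 and 244.97, 373 and 458 CPM on Day 10 (log2 fold change 0.22 ± 0.13, adjusted p = 0.16). SLC2A3, a second glucose carrier, had 520.1, 632 and 986 CPM on Day 8 and 821, 952 and 1024 CPM on Day 10 (log2 fold change 0.49 ± 0.15, adjusted p = 0.0054), and neither passed the threshold. Of 8 SLC2 carriers 3 rose, among them the fructose carrier SLC2A5, with 98.4, 139.9 and 168 CPM on Day 8 and 275.01, 379 and 558 CPM on Day 10 (log2 fold change 1.53 ± 0.27, adjusted p = 2.3e-05). SLC2A12 had 2.199, 5.18 and 6.91 CPM on Day 8 and 18.7, 27.1 and 89.0 CPM on Day 10 (log2 fold change 2.95 ± 0.26, adjusted p = 1.2e-10). PFKFB3, which makes the activator of phosphofructokinase, had 1.58, 3.82 and 10.2 CPM on Day 8 and 28.4, 55.7 and 68.2 CPM on Day 10 (log2 fold change 3.40 ± 0.30, adjusted p = 7.9e-11). The glycogen phosphorylases crossed, as the muscle form PYGM had 44.5, 172 and 264 CPM on Day 8 and 3.55, 23.8 and 63.1 CPM on Day 10 (log2 fold change -2.56 ± 0.37, adjusted p = 1.1e-06). The liver form PYGL had 1.74, 3.52 and 4.46 CPM on Day 8 and 7.10, 11.4 and 25.9 CPM on Day 10 (log2 fold change 1.98 ± 0.27, adjusted p = 2.8e-07). The days overlapped for PYGM and not for PYGL. CKB, the brain-type creatine kinase, had 401, 492 and 719 CPM on Day 8 and 141, 189.9 and 264 CPM on Day 10 (log2 fold change -1.44 ± 0.15, adjusted p = 2.7e-09), and its Day 12 median of 1257 CPM lay above both days.

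Amino acid genes were split, with 7 higher (12.1%) and 7 lower (12.1%) of 58, against 9.88% and 4.20% of all genes. With the robust GLM and DESeq2 12 and 11 were higher. Of 10 SLC7 carriers 4 fell and 1 rose. SLC7A6, a carrier of basic and neutral amino acids, had 44.0, 59.9 and 85.4 CPM on Day 8 and 12.3, 15.1 and 19.3 CPM on Day 10 (log2 fold change -2.03 ± 0.15, adjusted p = 3.0e-12). The arginine carrier SLC7A3 had 11.3, 14.2 and 19.4 CPM on Day 8 and 3.47, 6.13 and 7.85 CPM on Day 10 (log2 fold change -1.29 ± 0.16, adjusted p = 8.6e-08). SLC7A4, the member that rose, had 17.5, 24.3 and 26.7 CPM on Day 8 and 60.03, 120.7 and 316.8 CPM on Day 10 (log2 fold change 2.57 ± 0.28, adjusted p = 5.4e-09). All 3 were apart between the days. Enzymes that make and use arginine changed in opposite directions. ASS1 and ASL make arginine from citrulline. ASS1 had 7.71, 11.14 and 15.7 CPM on Day 8 and 20.8, 84.7 and 192 CPM on Day 10 (log2 fold change 3.01 ± 0.28, adjusted p = 2.4e-10). ASL had 2.55, 3.05 and 4.07 CPM on Day 8 and 6.04, 9.25 and 16.6 CPM on Day 10 (log2 fold change 1.62 ± 0.21, adjusted p = 1.9e-07), while ARG1, which breaks arginine down, fell as given above. SRM, the spermidine synthase, had 194, 339 and 414 CPM on Day 8 and 29.5, 70.2 and 91.7 CPM on Day 10 (log2 fold change -2.37 ± 0.22, adjusted p = 3.6e-10). ODC1, the first enzyme of polyamine synthesis, had 1053, 1345 and 1704 CPM on Day 8 and 899.6, 992 and 1108 CPM on Day 10 (log2 fold change -0.42 ± 0.12, adjusted p = 0.0045).

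Solute carriers as a family held 42 higher (17.6%) and 19 lower (7.98%) DEG of 238, against 9.88% and 4.20% of all genes. With library size alone the family held 37 and 23. Among monocarboxylate carriers, SLC16A9 had 32.6, 45.9 and 85.9 CPM on Day 8 and 249.3, 357 and 459 CPM on Day 10 (log2 fold change 2.72 ± 0.19, adjusted p = 5.9e-13). The aromatic amino acid carrier SLC16A10 had 21.3, 24.8 and 33.9 CPM on Day 8 and 60.4, 108.7 and 223 CPM on Day 10 (log2 fold change 2.25 ± 0.20, adjusted p = 8.4e-11). The zinc importer SLC39A2 had 28.9, 62.2 and 68.9 CPM on Day 8 and 312, 413 and 843 CPM on Day 10 (log2 fold change 3.11 ± 0.22, adjusted p = 4.9e-13). SLC39A14, a carrier of zinc and iron, had 34.5, 47.8 and 64.9 CPM on Day 8 and 9.48, 13.2 and 20.3 CPM on Day 10 (log2 fold change -1.82 ± 0.22, adjusted p = 4.0e-08). SLC39A2 and SLC39A14 thus moved in opposite directions, and of 21 zinc carriers of the SLC30 and SLC39 families 3 rose (14.3%) and 1 fell (4.76%). MT1A, a metallothionein that binds zinc, rose, with 0, 0.304 and 1.08 CPM on Day 8 and 3.45, 7.40 and 19.6 CPM on Day 10 (log2 fold change 4.42 ± 0.55, adjusted p = 7.7e-08). SLC6A12, the betaine and GABA carrier, had no counts in any Day 8 embryo and 0.273, 4.09 and 11.96 CPM on Day 10, which was at least 35.2-fold higher with the floor at 3 counts per library. In endocytosis, the adaptor DAB2 had 653, 850.4 and 974 CPM on Day 8 and 1732, 2102 and 2451 CPM on Day 10 (log2 fold change 1.31 ± 0.10, adjusted p = 6.4e-12). LRP2 (megalin), the receptor it serves, had 3028, 4071 and 4965 CPM on Day 8 and 1851, 2277 and 3999 CPM on Day 10 (log2 fold change -0.70 ± 0.18, adjusted p = 0.0015) and did not pass the threshold. RDH10, which oxidises retinol on the way to retinoic acid, had 25.4, 30.8 and 41.1 CPM on Day 8 and 8.90, 12.6 and 24.9 CPM on Day 10 (log2 fold change -1.19 ± 0.21, adjusted p = 1.6e-05).

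Among ion pumps and channels 8 of 26 rose (30.8%) and 2 fell (7.69%), against 9.88% and 4.20% of all genes. Potassium channels rose in 7 (31.8%) and fell in 3 (13.6%) of 22. The inward rectifier KCNJ2 had 1.03, 1.74 and 3.45 CPM on Day 8 and 18.7, 42.9 and 64.4 CPM on Day 10 (log2 fold change 4.34 ± 0.47, adjusted p = 5.8e-09). KCNQ1 had 13.1, 15.6 and 17.5 CPM on Day 8 and 36.9, 51.8 and 72.8 CPM on Day 10 (log2 fold change 1.72 ± 0.13, adjusted p = 2.2e-12). KCNK1 had 1.14, 3.38 and 11.2 CPM on Day 8 and 14.8, 22.3 and 33.9 CPM on Day 10 (log2 fold change 2.48 ± 0.28, adjusted p = 8.5e-09). All 3 were apart between the days, and the Day 12 medians were 4.59, 0.0990 and 128 CPM. The epithelial sodium channel SCNN1A and the aquaporin AQP3 had log2 fold changes of 0.69 ± 0.20 and 0.67 ± 0.23 and did not pass, and none of 4 aquaporins was a DEG.

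Genes of the cytoskeleton rose in 23 (29.9%) and fell in 3 (3.90%) of 77 measured members, against 9.88% and 4.20% of all genes. Their median log2 fold change was 0.53. With library size alone 16 were higher and 3 lower, and the median was 0.32. ACTN1, which bundles actin, had 363, 452 and 543 CPM on Day 8 and 659, 987 and 1392 CPM on Day 10 (log2 fold change 1.18 ± 0.15, adjusted p = 1.7e-07). The myosin light chain MYL6 had 179, 208 and 252 CPM on Day 8 and 383, 444 and 624 CPM on Day 10 (log2 fold change 1.17 ± 0.14, adjusted p = 5.6e-08). ARPC1B, a subunit of the actin-branching complex, had 100.1, 125 and 147 CPM on Day 8 and 265, 316.9 and 412 CPM on Day 10 (log2 fold change 1.41 ± 0.15, adjusted p = 3.2e-09). Genes of microvilli were among them, as PLS1 had 91.1, 139 and 177 CPM on Day 8 and 342, 418 and 528 CPM on Day 10 (log2 fold change 1.63 ± 0.14, adjusted p = 4.9e-11). RDX had 186, 223 and 259 CPM on Day 8 and 419.8, 592 and 884 CPM on Day 10 (log2 fold change 1.48 ± 0.21, adjusted p = 6.6e-07). EZR, the main linker of microvilli to the membrane, and ACTB had log2 fold changes of -0.11 ± 0.13 and 0.43 ± 0.12, under the limit. LASP1, another actin-binding protein, fell, with 1281, 1400.0 and 1656 CPM on Day 8 and 411, 626 and 927 CPM on Day 10 (log2 fold change -1.18 ± 0.14, adjusted p = 1.9e-08). Calcium-binding S100 genes rose in 6 of 16 (37.5%) and annexins in 5 of 11 (45.5%), with 1 and 1 that fell. S100A11 had 69.6, 87.7 and 143 CPM on Day 8 and 242, 438 and 890.0 CPM on Day 10 (log2 fold change 2.44 ± 0.21, adjusted p = 6.0e-11). ANXA8 had 25.3, 38.4 and 106 CPM on Day 8 and 103.1, 150.4 and 203 CPM on Day 10 (log2 fold change 1.75 ± 0.25, adjusted p = 7.4e-07). ANXA10 had 0.722, 2.25 and 5.04 CPM on Day 8 and 0, 0.121 and 0.454 CPM on Day 10 (log2 fold change -3.86 ± 0.56, adjusted p = 9.4e-07). STMN2, which destabilises microtubules, had 2.01, 3.94 and 9.44 CPM on Day 8 and 7.92, 26.6 and 90.3 CPM on Day 10 (log2 fold change 3.03 ± 0.45, adjusted p = 1.3e-06).

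Cell junction genes held 8 higher (11.9%) and 6 lower (8.96%) DEG of 67, against 9.88% and 4.20% of all genes. E-cadherin (CDH1) had 369.7, 423 and 578 CPM on Day 8 and 463, 521 and 675 CPM on Day 10 (log2 fold change 0.31 ± 0.16, adjusted p = 0.1). Occludin (OCLN) had 233, 273 and 323 CPM on Day 8 and 235.98, 249.6 and 269.5 CPM on Day 10 (log2 fold change -0.11 ± 0.10, adjusted p = 0.37). Desmoplakin (DSP) had 1060.0, 1261 and 1425 CPM on Day 8 and 973, 1114 and 1347 CPM on Day 10 (log2 fold change -0.14 ± 0.11, adjusted p = 0.26). None of these 3 passed the threshold, and their days overlapped. CLDN3, a tight junction claudin, had 0.0309, 0.139 and 0.768 CPM on Day 8 and 2.57, 5.13 and 33.5 CPM on Day 10 (log2 fold change 5.34 ± 0.55, adjusted p = 2.2e-09). TJP3, a scaffold of the same junction, had 33.7, 36.1 and 44.7 CPM on Day 8 and 52.6, 80.1 and 116 CPM on Day 10 (log2 fold change 1.11 ± 0.14, adjusted p = 9.6e-08). Of the integrins, which bind the matrix, 2 rose and 3 fell of 20, and ITGA3 had 0.197, 0.808 and 1.12 CPM on Day 8 and 1.18, 3.42 and 11.02 CPM on Day 10 (log2 fold change 2.51 ± 0.33, adjusted p = 1.9e-07). Syndecan 4 (SDC4), a matrix proteoglycan receptor, had 53.2, 65.3 and 73.1 CPM on Day 8 and 12.6, 18.3 and 29.8 CPM on Day 10 (log2 fold change -1.69 ± 0.13, adjusted p = 4.0e-12). Several surface genes rose from near 0 and depended on embryo d10_m_453, which held the highest value of each. They were the mucins MUC1 and MUC4, the integrin ITGB6 and the hemidesmosomal collagen COL17A1, whose log2 fold changes of 3.36, 4.53, 4.23 and 4.49 became 2.71, 3.62, 3.30 and 3.55 without that embryo. Without embryo d08_m_103 those of MUC4 and ITGB6 were 6.73 and 6.17. The Day 10 medians of MUC1, MUC4, ITGB6 and COL17A1 were 0.519, 0.283, 0.164 and 0.853 CPM. On Day 10, 4 embryos had at most 3 counts of MUC4 and 5 of ITGB6, and the days overlapped for each of these genes.

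In matrix and proteolysis, proteases and their inhibitors held 12 rises and 5 falls among 40 members, and basement membrane genes 2 and 2 among 32. Perlecan (HSPG2) had 217, 305 and 347 CPM on Day 8 and 83.4, 110.7 and 147 CPM on Day 10 (log2 fold change -1.37 ± 0.17, adjusted p = 1.1e-07). The laminin chain LAMB3 had 0.197, 0.524 and 1.16 CPM on Day 8 and 3.36, 7.16 and 17.4 CPM on Day 10 (log2 fold change 3.79 ± 0.35, adjusted p = 1.8e-10).

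Cathepsins, the proteases of lysosomes, had the largest share of DEG of the 53 families, as 6 of 12 rose and 3 fell. CTSZ had 61.1, 86.4 and 115 CPM on Day 8 and 481, 638 and 1110.3 CPM on Day 10 (log2 fold change 2.97 ± 0.28, adjusted p = 3.2e-10). CTSB had 52.8, 71.2 and 81.5 CPM on Day 8 and 158, 201 and 495 CPM on Day 10 (log2 fold change 1.89 ± 0.18, adjusted p = 4.5e-10). CTSD had 2032, 2617 and 3276 CPM on Day 8 and 559, 792 and 1469 CPM on Day 10 (log2 fold change -1.59 ± 0.21, adjusted p = 2.5e-07). CTSC had 66.3, 94.2 and 117 CPM on Day 8 and 8.90, 19.4 and 29.1 CPM on Day 10 (log2 fold change -2.41 ± 0.23, adjusted p = 4.3e-10). LGMN, the asparaginyl protease that processes cathepsins, fell with the second pair, with 1729.8, 2186 and 2894 CPM on Day 8 and 243, 482 and 712 CPM on Day 10 (log2 fold change -2.20 ± 0.16, adjusted p = 6.9e-13). PSAP, the precursor of saposins, had a log2 fold change of -0.33 ± 0.11 and did not pass. The autophagy genes MAP1LC3B and ULK1 rose. MAP1LC3B had 7.38, 8.50 and 10.7 CPM on Day 8 and 20.5, 42.3 and 130.3 CPM on Day 10 (log2 fold change 2.83 ± 0.26, adjusted p = 2.3e-10). ULK1 had 6.24, 7.13 and 8.92 CPM on Day 8 and 10.7, 19.9 and 88.6 CPM on Day 10 (log2 fold change 2.18 ± 0.34, adjusted p = 3.6e-06), and the days were apart for both. Serpins rose in 5 (35.7%) and fell in 2 (14.3%) of 14. SERPINB5 (maspin) had 2.04, 2.87 and 8.47 CPM on Day 8 and 24.4, 135 and 233.9 CPM on Day 10 (log2 fold change 4.99 ± 0.41, adjusted p = 1.7e-11). SERPINE2, an inhibitor of thrombin and plasminogen activators, had 78.7, 92.5 and 103.1 CPM on Day 8 and 18.8, 32.2 and 59.8 CPM on Day 10 (log2 fold change -1.47 ± 0.18, adjusted p = 3.7e-08). PRSS8, a membrane protease that activates sodium channels, had 78.9, 108 and 158 CPM on Day 8 and 8.25, 28.3 and 60.8 CPM on Day 10 (log2 fold change -1.88 ± 0.27, adjusted p = 7.4e-07).

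Genes of prostaglandins and phospholipids moved in both directions, 4 higher (18.2%) and 2 lower (9.09%) of 22, against 9.88% and 4.20% of all genes. PTGS2 (NCBI gene 397590, chromosome 9, 127850164 to 127858866), the inducible synthase, had 618, 786 and 1056 CPM on Day 8 and 22.9, 152 and 194 CPM on Day 10 (log2 fold change -2.63 ± 0.42, adjusted p = 5.1e-06). SLCO2A1, the prostaglandin carrier, had 8.99, 14.6 and 23.2 CPM on Day 8 and 0.819, 1.90 and 2.73 CPM on Day 10 (log2 fold change -3.09 ± 0.34, adjusted p = 8.2e-09). PTGES, the synthase of prostaglandin E2, had 432, 519 and 635 CPM on Day 8 and 595, 667 and 1464 CPM on Day 10 (log2 fold change 0.61 ± 0.24, adjusted p = 0.031) and did not pass. Both genes that fell were lower in every Day 10 embryo.

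The lysophosphatidic acid receptor LPAR3 had 4.94, 9.73 and 18.99 CPM on Day 8 and 17.6, 36.0 and 117 CPM on Day 10 (log2 fold change 2.18 ± 0.36, adjusted p = 7.7e-06). The prostaglandin E2 receptor PTGER4 had 0.0516, 0.117 and 0.494 CPM on Day 8 and 1.27, 3.19 and 9.39 CPM on Day 10 (log2 fold change 4.61 ± 0.41, adjusted p = 8.8e-11). Of 22 measured hormone and growth factor receptors 6 rose (27.3%) and 1 fell (4.5%), against 9.88% and 4.20% of all genes. IGF1R, the receptor for insulin-like growth factors, had 8.97, 13.7 and 21.8 CPM on Day 8 and 32.1, 49.7 and 97.8 CPM on Day 10 (log2 fold change 2.02 ± 0.21, adjusted p = 2.3e-09). PGRMC1, a heme-binding membrane protein, had 151, 197 and 230.5 CPM on Day 8 and 408, 604 and 1077 CPM on Day 10 (log2 fold change 1.78 ± 0.13, adjusted p = 8.8e-13). The vitamin D receptor VDR had 30.8, 44.2 and 50.4 CPM on Day 8 and 14.3, 17.4 and 22.3 CPM on Day 10 (log2 fold change -1.25 ± 0.11, adjusted p = 1.7e-10). Immune genes rose in 6 of 38 (15.8%) and fell in none. The chemokine CXCL12 had 0, 0.157 and 0.658 CPM on Day 8 and 8.52, 13.1 and 196 CPM on Day 10 (log2 fold change 7.58 ± 0.75, adjusted p = 8.2e-10), the highest value being that of embryo d10_f_454, without which the log2 fold change was 6.99. TNFAIP3, which limits NF-kappaB signalling, had 4.14, 5.32 and 7.69 CPM on Day 8 and 10.1, 13.3 and 29.7 CPM on Day 10 (log2 fold change 1.55 ± 0.25, adjusted p = 5.8e-06).

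Of 52 measured replication and mitosis genes 39 had a log2 fold change under 0, with a median of -0.34. By the criteria 4 fell (7.69%) and 2 rose (3.85%), against 4.20% and 9.88% of all genes, while with library size alone 8 were lower. MKI67, the proliferation marker, had 54.8, 80.7 and 107 CPM on Day 8 and 60.9, 101 and 141 CPM on Day 10 (log2 fold change 0.31 ± 0.14, adjusted p = 0.056). PCNA, the replication clamp, had 175, 204 and 244 CPM on Day 8 and 74.9, 143 and 179 CPM on Day 10 (log2 fold change -0.62 ± 0.15, adjusted p = 7.6e-04). ORC1, of the origin recognition complex, had 159, 177.9 and 186 CPM on Day 8 and 43.4, 83.2 and 112 CPM on Day 10 (log2 fold change -1.15 ± 0.15, adjusted p = 1.1e-07). Of these only ORC1 passed, and it was lower in every Day 10 embryo. The cell cycle inhibitor CDKN1B had 9.18, 10.5 and 11.8 CPM on Day 8 and 20.4, 24.3 and 31.2 CPM on Day 10 (log2 fold change 1.21 ± 0.08, adjusted p = 3.7e-13). MYC, which drives growth, had 33.2, 41.3 and 51.6 CPM on Day 8 and 5.82, 16.8 and 28.6 CPM on Day 10 (log2 fold change -1.38 ± 0.21, adjusted p = 2.3e-06).

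In chromatin, EED, a core subunit of Polycomb complex PRC2, had 78.4, 85.5 and 98.5 CPM on Day 8 and 16.3, 24.003 and 36.8 CPM on Day 10 (log2 fold change -1.78 ± 0.12, adjusted p = 1.3e-13). The de novo methyltransferase DNMT3A had 29.1, 37.2 and 40.01 CPM on Day 8 and 13.6, 16.5 and 24.7 CPM on Day 10 (log2 fold change -1.06 ± 0.12, adjusted p = 7.3e-09). TET1, which oxidises methylcytosine, had 13.4, 17.2 and 23.5 CPM on Day 8 and 31.3, 49.6 and 88.9 CPM on Day 10 (log2 fold change 1.47 ± 0.26, adjusted p = 2.0e-05). These 3 genes were apart between the days. The receptor KIT and its ligand KITLG, known from germ cells, both fell. KIT had 4.26, 6.25 and 12.2 CPM on Day 8 and 0.867, 1.91 and 3.81 CPM on Day 10 (log2 fold change -1.73 ± 0.34, adjusted p = 8.0e-05). KITLG had 89.0, 110.5 and 139.9 CPM on Day 8 and 5.85, 33.3 and 68.0 CPM on Day 10 (log2 fold change -1.73 ± 0.37, adjusted p = 2.1e-04), and the days were apart for both. The germ line RNA-binding gene NANOS1 rose, with 2.27, 3.05 and 4.93 CPM on Day 8 and 8.40, 15.4 and 23.8 CPM on Day 10 (log2 fold change 2.27 ± 0.19, adjusted p = 3.6e-11).

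Large families of general metabolism held almost no DEG, although their members leaned to one side. None of 81 cytosolic ribosomal protein genes was a DEG, 74 of them had a positive log2 fold change and the median was 0.24. None of 77 mitochondrial ribosomal protein genes was one, 60 had a negative change and the median was -0.26. Subunits of respiratory complex I and of complexes III to V had medians of 0.24 and 0.34 over 37 and 30 genes, with COX7A1 as the single DEG (higher), and tRNA synthetases had a median of -0.34 over 34 genes, none of them a DEG. With library size alone these medians became 0.06, -0.43, 0.06, 0.16 and -0.51, so that each kept its sign. TRIM genes, a family of ubiquitin ligases, held 5 higher (12.5%) and 9 lower (22.5%) DEG of 40, against 9.88% and 4.20% of all genes. With library size alone 3 of them were higher. TRIM29 had 12.8, 34.7 and 78.9 CPM on Day 8 and 174, 400.2 and 719 CPM on Day 10 (log2 fold change 3.32 ± 0.36, adjusted p = 6.0e-09). TRIM10 had 15.6, 22.4 and 25.5 CPM on Day 8 and 0.444, 1.40 and 9.18 CPM on Day 10 (log2 fold change -3.25 ± 0.46, adjusted p = 6.3e-07), or -3.85 without embryo d10_f_433. Other enzymes and carriers outside the function lists changed too. ALDH1L2, the mitochondrial formyltetrahydrofolate dehydrogenase, had 568, 803 and 907 CPM on Day 8 and 3332, 5626 and 7406 CPM on Day 10 (log2 fold change 2.84 ± 0.20, adjusted p = 6.2e-13), and a median of 79.6 CPM on Day 12. MGST1, a microsomal glutathione transferase, had 4.90, 10.2 and 19.3 CPM on Day 8 and 26.4, 69.9 and 187 CPM on Day 10 (log2 fold change 2.99 ± 0.32, adjusted p = 3.6e-09). RAB3B, a GTPase of secretory vesicles, had 3.17, 4.74 and 7.76 CPM on Day 8 and 20.6, 40.1 and 68.6 CPM on Day 10 (log2 fold change 3.07 ± 0.35, adjusted p = 1.8e-08). ABCC2, an exporter of conjugated compounds, had 346, 462 and 767 CPM on Day 8 and 131, 170.0 and 257 CPM on Day 10 (log2 fold change -1.44 ± 0.17, adjusted p = 2.2e-08). The semaphorin SEMA4D had 102, 119 and 146 CPM on Day 8 and 19.7, 30.1 and 56.7 CPM on Day 10 (log2 fold change -1.87 ± 0.23, adjusted p = 5.8e-08). All of these were apart between the days. Long non-coding RNA genes held 47 higher and 26 lower DEG of 494. These shares of 9.51% and 5.26% were near the 9.88% and 4.20% of all genes.

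Embryos of one day did not lie equally far along the change. Each embryo was placed for each DEG on a scale with the mean log2 CPM of Day 8 at 0 and that of Day 10 at 1, which describes the same genes that defined the DEG and is no test. The medians of Day 8 embryos lay within -0.0518 to 0.094 over the higher DEG and -0.0479 to 0.0528 over the lower DEG, while those of Day 10 embryos ran from 0.687 to 1.33 and from 0.712 to 1.2. Embryo d10_f_433 stood nearest to Day 8, with 0.687 and 0.712, followed by embryo d10_m_435 with 0.759 and 0.787, and embryo d10_f_454 and embryo d10_m_453 stood farthest, with 1.33 and 1.29 over the higher DEG. Embryo d10_f_433 had the lowest Day 10 level in 535 of the 1295 higher DEG and the highest in 232 of the 550 lower DEG. Embryo d10_f_454 had the highest Day 10 level in 489 higher DEG and embryo d10_m_453 in 389. The median standard deviation of log2 CPM was 0.42 on Day 8 and 0.547 on Day 10 over the higher DEG, 0.319 and 0.494 over the lower DEG, and 0.208 and 0.259 over genes that were not DEG. The spread was larger on Day 10 in 71.6%, 77.8% and 63.9% of these sets. Litter, which is not given, cannot be told apart from the stage of single embryos here. Without embryo d10_f_433 the count was 1349 higher and 590 lower DEG, without embryo d10_m_435 1314 and 563, without embryo d10_f_454 1174 and 504, and without embryo d10_m_453 1172 and 497, and of the 1845 DEG 1804, 1781, 1658 and 1644 were also called. Embryo d08_m_103 had the highest Day 8 level in 319 of the higher DEG, many of them at low levels, and held the highest summed level of the uterine epithelium markers on Day 8 (3.13 CPM), while embryo d10_m_435 held the highest on Day 10 (8.72 CPM). The part of these markers in the results was not tested. Without embryo d08_m_103 there were 1381 higher and 536 lower DEG.

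**Figure D5:**
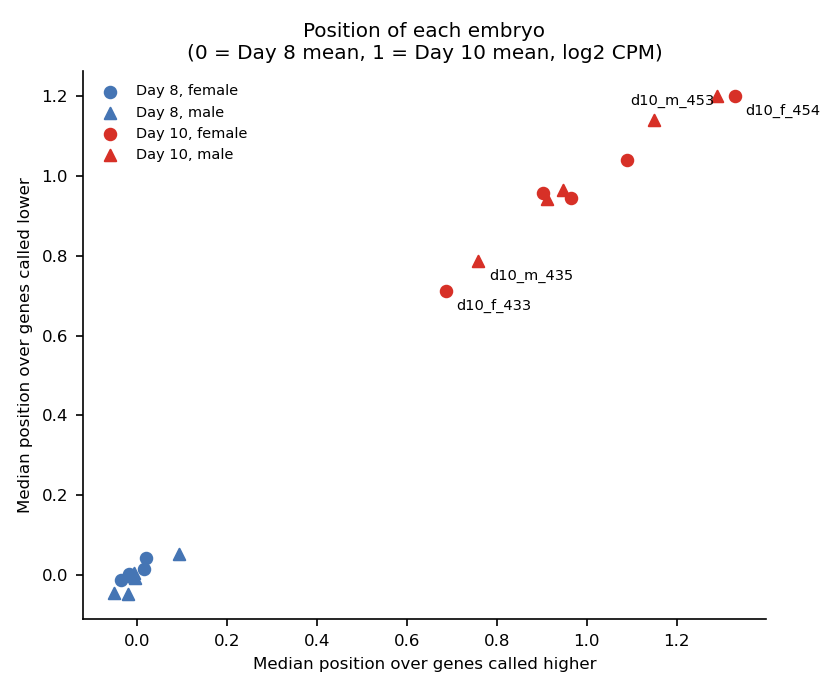
Median position of each embryo along the change, over the genes higher on Day 10 (horizontal axis) and over those lower on Day 10 (vertical axis), with 0 as the Day 8 mean and 1 as the Day 10 mean of log2 CPM. Day 8 embryos lie together near 0, and Day 10 embryos run from embryo d10_f_433 (0.687, 0.712) to embryo d10_f_454 (1.33, 1.2).

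The change was compared between the sexes, with 5 embryos of each sex and day. In females alone 718 genes were higher and 259 lower on Day 10, and in males alone 751 and 316. Of these, 550 higher and 195 lower genes were called in both, 76.6% and 75.3% of the female calls and 73.2% and 61.7% of the male calls. The sign in the other sex was the same for 717 of the 718 female and all 751 male higher calls, and for all lower calls. The interaction of day and sex passed an FDR of 0.05 in 0 genes (0%) by edgeR, with a smallest adjusted p of 0.11 and 100 genes at an unadjusted p under 0.05, and in 1 gene, ADCY1, by DESeq2. The 100 genes are fewer than chance alone would give among all genes tested, so this test was conservative here. By edgeR, no gene with a difference between the sexes in the change from Day 8 to Day 10 was thus detected at this number of embryos. The dam, which is not stated, could not be a term. The paper compared the sexes within each day, which is another test, and reported fewer X-linked differences on Day 10 than on Day 8.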

How the data were processed

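Whole pig embryos of Day 8, Day 10 and Day 12 were measured by strand-specific mRNA sequencing on a HiSeq 2500 with single-end reads, after RNA of high integrity had been extracted from each embryo. The values used are the raw read counts per NCBI gene ID that the authors deposited, and the authors had trimmed the reads with Trim Galore, worked in Galaxy with the Sscrofa11.1 assembly and the NCBI annotation, and left out genes of low expression by a CPM cutoff. The aligner, the counter and the cutoff are not given in the sources used here. Tables of single days hold the same kind of counts and were not used. All 13103 gene IDs were paired with symbols through a RefSeq gene table of Sscrofa11.1.

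Counts of all 30 embryos were fitted with 3 day groups in edgeR 4.0.16 (TMM factors, robust quasi-likelihood F test, R 4.3.3), and DEG between Day 10 and Day 8 had a Benjamini-Hochberg adjusted p under 0.001 over all genes and a log2 fold change beyond 1. Errors of log2 fold changes are standard errors. The code was tested on simulated data. Sex was tested as an interaction with day at an FDR of 0.05. Total counts per embryo set the precision, and levels under 3 counts were read as the floor, which covers counting error only. Groups were taken from the labels, and the embryos carry their label names, in which f and m stand for female and male. Alternatives were DESeq2 1.42.0, edgeR's robust GLM, RLE factors, library size alone, 2 filters, sex as a term, Days 8 and 10 alone, each sex alone, 2 thresholds and leaving out each embryo, the last for single genes being added after seeing the data.

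Function lists (26), classes of transcription factors (25) and families by symbol (53) were chosen with earlier results of these data known. The genes named were the 15 largest rises and 15 largest falls among DEG without overlap and with a mean of at least 10 CPM (steroid and interleukin 1 genes left out), the 10 largest rises and falls of factors with a mean of at least 5 CPM, the lists' defining members, and up to 3 DEG per list and 2 per family in each direction. Some genes that this rule names are not reported here. AMOTL2, ARPC1B, ASL, BMPR1B, CDKN1B, DKK1, DUSP5, ECI2, FGF10, FGFR3, FOXA1, GDF6, KCNK1, KCNQ1, LIPE, LSS, MGLL, MYL6, PLS1, PRDM14, RDX, RNF43, S100A11, TJP3, TNFAIP3, VGLL1, COX7A1 and ADCY1 fall outside this rule and were chosen after their values were seen.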

Additional observations from a re-analysis of the deposited data

Results flagged for a closer look

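In 16 of 406 sets of 10 embryos (203 genes, Day 8 and Day 10) the highest or lowest embryo stood apart from the others by more than Dixon's 95% critical value for the gap over the range, where chance flags about 1 in 20 sets. On Day 8, embryo d08_m_121 was high for 4 genes of the hypoblast list, APOA1 (1175 CPM), GATA4 (63.06 CPM), HNF4A (63.90 CPM) and SOX17 (49.67 CPM). Embryo d08_m_103 was high for FGF7 (0.4662 CPM), ITGB6 (0.1097 CPM), MUC4 (0.1371 CPM) and SLC27A6 (1.974 CPM) and low for SLC39A2 (28.90 CPM). Embryo d08_m_133 was high for HAND1 (0.4642 CPM) and PLET1 (3.507 CPM). Embryo d08_m_136 was low for MGLL (8.767 CPM). Single values stood apart for GULO in d08_m_111 (245.3 CPM, high), AMOTL2 in d08_f_109 (20.45 CPM, low) and WNT7B in d08_f_105 (0.09388 CPM, high). On Day 10 the one such value was that of FOXA1 in d10_m_333 (3.109 CPM, high). The values of WNT7B, ITGB6 and MUC4 lay within the 0.0823 to 0.194 CPM that 3 counts correspond to on Day 8. They rest on few reads and may be counting noise. None of the flagged values was left out.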

How the results depend on the processing

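The number of DEG was 1255 higher and 549 lower after a filter of 10 counts in 5 embryos, 1122 and 466 with a mean of at least 1 CPM, 1301 and 548 with RLE factors, 1027 and 811 with library size alone, 1295 and 553 with sex as a term, 1348 and 620 with Days 8 and 10 alone, 1543 and 679 with the robust GLM and 1456 and 611 with DESeq2. Leaving out 1 embryo gave 1172 to 1381 higher and 497 to 590 lower DEG, and none of the DEG was called in the opposite direction. The counts moved by over 1.5 times with a fold tested against a log2 value of 1 (513 and 162), with an FDR of 0.05 and no fold limit (3852 and 3501), and with 5 embryos per day, where females gave 718 and 259 and males 751 and 316. In females, rises and falls were 116 and 42 over the function lists, 99 and 40 over the families and 31 and 16 over the transcription factors. In males, 107 list members, 94 family members and 29 factors rose, and 46 family members and 20 factors fell. These fits hold fewer embryos. The interaction of day and sex was called in 1 gene by DESeq2 and in 0 by edgeR. Of 203 genes of the text, library size alone ended 8 calls and added 1 (GATA4, -1.03), females alone ended 34 and males alone 33, the other 5 fits changed none, and leaving out 1 embryo ended 1 (NODAL). Of 52 list counts, 46 to 52 stayed within 1.5 times in the fits with all embryos, and 29 and 28 in females and males. With a prior count of 0.5 the spread was larger on Day 10 in 63.5% of higher and 84.0% of lower DEG, and in 63.2% of genes that were not DEG. The share of the higher DEG was thus near that of the other genes with this setting. No paired analysis was possible because the embryo numbers are not shared between the days. Levels near 3 counts, 0.0823 to 0.194 CPM, are limited by depth.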
